A study of Rattus norvegicus with 10 samples.

Results

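The transporters described here are the solute carriers of 11 families that move sugars, amino acids, monocarboxylates and organic ions across cell membranes: Slc1, Slc2, Slc5, Slc6, Slc7, Slc16, Slc17, Slc22, Slc36, Slc38 and Slc43. Within these families the members were taken by gene symbol alone, as all probe sets whose platform annotation names 1 gene of these families. This gave 127 of the 31099 probe sets of the array and 97 of its 14217 named genes. The families were picked with earlier results of these data known, and Slc5a11, Slc17a1 and Slc7a7 were named with them. The shares of calls set beside those of all tested probe sets are therefore descriptions and no independent test of the transporters. Of the 127 probe sets, 91 (75 genes) reached the level set for testing, log2 4.82 on at least 2 of 10 arrays, and 36 did not. The tested share was 71.7% among the transporters and 72.5% among all probe sets. Slc7a7 reached that level on both ED mutant arrays and on no other array, so it could enter the test only as a gene that was higher there.

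Gene expression was measured on single-colour Affymetrix rat arrays in cells labelled A7r5, a line derived from embryonic rat aorta and labelled as vascular smooth muscle. All cells were kept in normal oxygen at about 50% confluence with 10% serum, and each group carried 1 stably transfected construct. The 5 groups of 2 arrays held an empty vector, wild-type BMPR2, or BMPR2 with 1 of 3 mutations: 2579-2580delT in the cytoplasmic tail (CD mutant), T354G in the extracellular domain (ED mutant) and C994T in the kinase domain (KD mutant). BMPR2 encodes a cell surface kinase that binds bone morphogenetic proteins, and inherited mutations in it underlie familial pulmonary arterial hypertension. The titles of the 2 vector arrays call the cells native A7r5, whereas their description and transfection fields name the empty vector, which is followed here. The labels name neither the promoter of the constructs nor whether a line was 1 clone, and separate cultures for the arrays of 1 group are not stated, so the p-values measure a spread between arrays that may be technical. The comparisons ask what the wild-type receptor did against its vector and what each class of mutation did against wild type.

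Slc2 carriers move glucose and related sugars down their gradient, whereas Slc5 carriers use the sodium gradient to take up glucose, myo-inositol, lactate or vitamins. Amino acids enter through the Slc1, Slc6, Slc36, Slc38 and Slc43 families and through Slc7 exchangers, several of which reach the surface only with the heavy chain Slc3a2 or Slc3a1. Slc16 carriers move lactate and other monocarboxylates, Slc17 carriers move phosphate, urate, sialic acid or vesicular glutamate, and Slc22 carriers move organic cations and anions, above all in kidney and liver.

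The KD mutant arrays stood apart from the other 8 before any transporter was considered. Over all probe sets they correlated with the others at Pearson's r of 0.71 to 0.72, whereas the others correlated among themselves at 0.99 to 1.00, and their median log2 value was 4.94 to 4.95 against 5.32 to 5.36. The poly-A spike-in controls averaged 6.02 on the KD mutant arrays and 6.92 to 7.44 in the other groups, and the hybridization controls 9.97 against 10.85 to 10.96. Of 11 smooth muscle genes, 6 were at the test level on all 8 other arrays, while Cnn1, Lmod1 and Myocd lay below it on each of them. Between KD mutant and wild type 7 of 13 tested smooth muscle probe sets rose and 5 fell, beside 34.5% and 55.1% of all tested probe sets. Tpm2 differed by 6.47 with 1372219_at and by -1.40 with 1392976_at. The actin gene Acta2 rose, from 6.26 ± 0.09 (SD, n = 8) on the other arrays to 9.05 and 9.72, and the smoothelin gene Smtn (1372684_at) fell, from 10.41 ± 0.06 to 8.05 and 8.62. Of the 9 tested fibroblast probe sets 8 rose and 1 fell. The collagen gene Col1a2 (1370155_at) went from 3.88 ± 0.21 to 13.46 and 13.78. Of the 9 tested epithelial probe sets 8 fell, among them the cadherin gene Cdh1, from 9.71 ± 0.39 to a mean of 5.87, and 1 rose, the keratin gene Krt7, from 7.32 ± 0.16 to 11.84 and 12.03. All 9 tested kidney tubule probe sets fell, the regulator gene Pax2 from 10.38 ± 0.06 to 7.01 and 7.12. Umod, Aqp2 and both Slc34a1 probe sets of that list were below the test level on both KD mutant arrays. They could enter the test only as falls, as could Pdgfra, Cldn7, both Ocln probe sets, Mylk (1384818_at) and Tpm2 (1392976_at). Both Col1a2 probe sets, Thy1 (1369652_at), Col1a1 (1388116_at) and Cnn1, below the level on all 8 others, could enter only as rises. The counts of rises and falls in these marker lists include them and are descriptions only. The part of these markers and controls in the transporter values was not tested, and in bulk RNA fewer cells of a type and less RNA per cell cannot be told apart. Comparisons among the 8 similar arrays are therefore given first, and those with the KD mutant afterwards. The human constructs themselves were not measured, since the probe sets are annotated to rat genes.

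Against the empty vector, the mean of the receptor constructs was higher for Slc5a11 and Slc22a18 and lower for Slc17a1. Slc5a11 encodes a sodium-coupled myo-inositol carrier, Slc22a18 an organic cation carrier-like protein from an imprinted locus, and Slc17a1 a phosphate and urate carrier of the kidney proximal tubule. When the mean of wild type, CD and ED mutant was set against the vector, these 3 of the 91 tested transporter probe sets passed the test (limma, adjusted p under 0.05 over all tested probe sets), 2 upward and 1 downward, where 0.2% of all tested probe sets passed (0.138% upward and 0.0622% downward).

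Slc5a11 stood at log2 6.03 and 6.39 with empty vector, 7.27 and 7.22 with wild type, 7.10 and 7.48 in the CD mutant, then 8.27 and 8.44 with the ED mutation. Every receptor array lay above both vector arrays, and the ED mutant arrays lay above all others. The mean of the 3 constructs was 1.42 above the vector (SE 0.14, 2.67-fold, 95% interval 1.12 to 1.72, adjusted p = 0.00377). Slc22a18 stood at 6.25 and 6.44 with empty vector, 6.78 and 6.98 with wild type, 7.09 and 7.02 for the CD mutant and 7.11 and 6.98 for the ED mutant. The ED mutant arrays overlapped those of the CD mutant and of wild type, and no receptor array reached down to the vector. The mean of the 3 constructs was 0.65 above it (SE 0.09, 1.57-fold, adjusted p = 0.0234). Slc17a1 stood at 6.84 and 6.62 with empty vector, 6.01 and 5.92 with wild type, 5.90 and 5.88 for the CD mutant and 5.98 and 5.95 for the ED mutant. The 6 receptor arrays thus lay within a narrow band below both vector arrays. Their mean was 0.79 lower (SE 0.09, 1.73-fold, adjusted p = 0.00790).

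Since Slc17a1 and Slc22a18 passed in opposite directions in that comparison, the 150 bases before each start site are shown (RefSeq, build GRCr8, 5′ to 3′ on the gene's strand).
Slc17a1, chr17:41681175-41681324, minus strand: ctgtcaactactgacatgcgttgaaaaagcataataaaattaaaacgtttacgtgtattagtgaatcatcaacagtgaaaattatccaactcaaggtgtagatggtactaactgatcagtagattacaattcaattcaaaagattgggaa
Slc22a18, chr1:208101023-208101172, plus strand: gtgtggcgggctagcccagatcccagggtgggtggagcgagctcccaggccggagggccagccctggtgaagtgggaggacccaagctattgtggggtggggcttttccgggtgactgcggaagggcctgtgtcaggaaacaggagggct
Neither 300-base promoter, from 250 bases before to 50 after the start, held any of the 4 motifs searched on both strands: TGATGNAAT (amino acid response element), GGCGCC (a GC element of BMP-responsive genes), GTTAAT (HNF1 element) and CACGTG (E-box). That says only that these letters are not in the window. Of all 33469 promoters in the table, 1.09%, 11.02%, 7.45% and 6.42% held them in that order. Among the 80 promoters of the 77 transporter genes that matched the table, 0, 12, 6 and 11 held them.

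**Figure D1:**
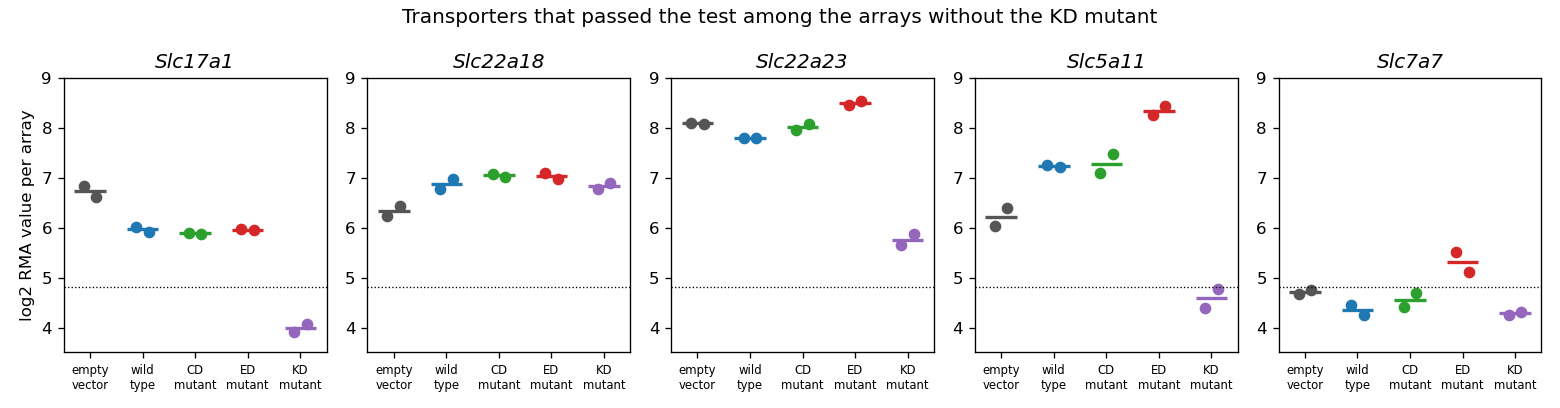
Log2 RMA value per array (dots) and group mean (lines) of the 5 transporters that passed the test in any comparison among the 8 arrays without the KD mutant, by construct; the dotted line is the test level of 4.82. Slc5a11 steps from 6.03 and 6.39 with empty vector to 8.27 and 8.44 in the ED mutant, Slc17a1 is highest with empty vector, and Slc7a7 lies above the level in the ED mutant alone.

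Singly, the constructs differed in what passed. Wild type against vector gave 0 of 91 transporter probe sets in limma, where 0.0133% of all tested probe sets passed. An unadjusted p under 0.05 was reached by 11 (12.1%), beside 6.54% of all tested probe sets. With an intensity trend and robust variance 2 passed, Slc5a11 and Slc17a1, while the calls over all tested probe sets went from 3 to 68. Slc5a11 was 1.03 above the vector (95% interval 0.67 to 1.40, adjusted p = 0.126), Slc17a1 differed by -0.76 (adjusted p = 0.119), and Slc22a18 was 0.54 above it (adjusted p = 0.256). The next largest differences were -0.40 for the neutral amino acid carrier Slc38a1 and 0.37 for the cystine/glutamate exchanger Slc7a11, and neither passed (adjusted p = 0.508 and 0.708). In the CD mutant against vector 2 of 91 passed, where 0.111% of all passed (0.0533% upward, 0.0578% downward). Slc5a11 rose by 1.08 (2.11-fold, adjusted p = 0.0397) and Slc17a1 fell by 0.84 (1.79-fold, adjusted p = 0.0269), while Slc22a18, 0.71 higher, missed the threshold (adjusted p = 0.0536). In the ED mutant against vector 3 of 91 passed, where 0.529% of all passed (0.369% upward, 0.16% downward). Slc5a11 rose by 2.14 (4.42-fold, 95% interval 1.78 to 2.51, adjusted p = 0.000273), Slc22a18 rose by 0.70 (1.63-fold, adjusted p = 0.0224) and Slc17a1 fell by 0.77 (1.70-fold, adjusted p = 0.0108).

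The rise of Slc5a11 in the ED mutant against vector passed whichever of the 4 arrays was left out (adjusted p = 0.00310 to 0.00893). Each of the other calls against the vector among the 8 arrays was lost in 1 or more of such fits. These fits leave 1 array in a group and estimate the spread from fewer arrays. The differences kept their direction, for the CD mutant at 0.89 to 1.26 for Slc5a11 and -0.95 to -0.73 for Slc17a1. For the ED mutant they were 0.61 to 0.80 for Slc22a18 and -0.87 to -0.66 for Slc17a1. Leaving out any 1 of the 4 arrays of the CD mutant comparison left 0 calls. For the ED mutant, Slc22a18 was lost without any 1 of the 4 (adjusted p = 0.0694 to 0.304), and Slc17a1 was kept only without empty vector replicate 2 (adjusted p = 0.0454). For the mean of the 3 constructs, all 3 calls were lost without empty vector replicate 1, Slc5a11 alone remained without empty vector replicate 2, and Slc22a18 was lost without any 1 of the 8 arrays (adjusted p = 0.0502 to 0.568).

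Markers of tissues that use these carriers were read beside them. The mean log2 level of 10 measured kidney tubule genes lay between 6.19 and 6.35 on the 8 arrays, and the group means differed by at most 0.07. The 6 enterocyte genes, 3 of them at the test level on all 8 arrays, averaged 5.50 to 5.96 on the same arrays, highest in the ED mutant, and Lgals4, an intestinal lectin gene among them, averaged 8.66 with empty vector and 9.95 in the ED mutant (adjusted p = 0.00146 in limma). The 8 measured hepatocyte genes averaged 5.38 to 5.74, again highest in the ED mutant. Fgb (1370511_at) was 1.56 higher in the ED mutant than with vector and 1.02 higher for the mean of the 3 constructs. It gave the 1 call among the 8 tested hepatocyte probe sets in each, where the list medians were 0.25 and 0.13. Of 7 tested neuron and glia probe sets 2 rose in the ED mutant against vector, where the list median was -0.01. The 10 epithelial genes averaged 7.27 in the ED mutant, higher than in the other 3 groups, where the highest mean was 7.05. Cdh1 (1386446_at) was 1.01 higher in the ED mutant than with vector and 0.62 higher for the mean of the 3 constructs (adjusted p = 0.00364 and 0.0361 in limma). It gave the 1 call among the 9 tested epithelial probe sets in each comparison, where the list medians were 0.17 and -0.03. Lgals4 likewise gave the 1 call among the 5 tested enterocyte probe sets in the ED mutant against vector. The poly-A spike-in controls averaged 6.93 with empty vector, 6.92 with wild type, 7.44 in the CD mutant and 7.17 with the ED mutation. The part of these in the transporter differences was not tested.

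Against wild type, 3 of 91 transporters passed in the ED mutant, all 3 upward, where 0.164% of all tested probe sets passed (0.138% upward). They were Slc5a11, Slc7a7, which encodes the light chain of a cationic and neutral amino acid exchanger mutated in lysinuric protein intolerance, and Slc22a23, an orphan member of the organic ion family. Slc5a11 stood 1.11 above wild type (SE 0.17, 2.16-fold, 95% interval 0.75 to 1.47, adjusted p = 0.0295). Slc7a7 stood at 4.67 and 4.75 with empty vector, 4.45 and 4.25 with wild type, 4.40 and 4.69 for the CD mutant and 5.51 and 5.11 for the ED mutant. The ED mutant arrays lay above the other 6, all of which were below the test level, where differences are compressed. Slc7a7 entered the test only through the ED mutant arrays, so its call supports nothing in the count of 3 or in its direction. The rise over wild type was 0.96 (SE 0.15, 1.95-fold, adjusted p = 0.0299). Slc22a23 stood at 8.11 and 8.08 with empty vector, 7.81 and 7.80 with wild type, 7.97 and 8.09 for the CD mutant and 8.46 and 8.54 for the ED mutant. Wild type was thus the lowest of the 4 groups and the ED mutant the highest. The ED mutant was 0.70 above wild type (SE 0.11, 1.62-fold, adjusted p = 0.0300) and 0.40 above the vector, where it did not pass (adjusted p = 0.143).

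These 2 genes are shown by the 150 bases before their starts, because they were higher in the ED mutant than with wild type while neither passed against the vector.
Slc7a7, chr15:31835684-31835833, minus strand: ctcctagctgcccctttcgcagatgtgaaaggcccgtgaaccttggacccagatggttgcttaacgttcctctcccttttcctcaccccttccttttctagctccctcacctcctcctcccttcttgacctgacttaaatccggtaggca
Slc22a23, chr17:30749295-30749444, plus strand: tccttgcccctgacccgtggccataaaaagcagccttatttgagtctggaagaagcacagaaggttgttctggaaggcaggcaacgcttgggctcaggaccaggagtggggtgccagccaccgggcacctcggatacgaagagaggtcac
None of the 4 motifs was found in their 300-base promoters. Slc5a11 had no entry in the promoter table.

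Slc17a1 did not follow this pattern. Its ED mutant and wild-type arrays overlapped, with a difference of -0.00 (95% interval -0.24 to 0.24, adjusted p = 0.998). The main glucose carrier gene Slc2a1 was 0.46 above wild type and the monocarboxylate carrier gene Slc16a6 differed by -0.44, and neither passed (adjusted p = 0.185 and 0.321). All 3 calls of the ED mutant against wild type were lost when any 1 of the 4 arrays was left out, and also when only these 4 arrays were fitted (adjusted p = 0.0652, 0.116 and 0.0731 for Slc5a11, Slc7a7 and Slc22a23).

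The CD mutant against wild type gave 0 of 91 in limma, as did all tested probe sets (0%). An unadjusted p under 0.05 was reached by 4 transporter probe sets (4.40%), beside 3.48% of all tested. Slc5a11 differed by 0.04 (95% interval -0.32 to 0.41), Slc17a1 by -0.08 (95% interval -0.32 to 0.16) and Slc7a7 by 0.20 (95% interval -0.12 to 0.52). The largest differences were 0.44 for the lysosomal glutamine carrier gene Slc38a7, 0.39 for Slc16a7, 0.32 for Slc38a1, 0.32 for Slc16a1 (1386981_at) and -0.26 for the iodide carrier gene Slc5a5. Slc16a7 lay below the test level in both groups and entered the test only through the KD mutant arrays. Directly against the CD mutant, the ED mutant had 1 transporter higher, where 0.351% of all tested probe sets passed (0.244% upward). This was Slc5a11, 1.07 higher (SE 0.17, 2.09-fold, 95% interval 0.70 to 1.43, adjusted p = 0.0190), a call that remained without CD mutant replicate 2 and was lost without any 1 of the other 3 arrays. Slc7a7 was 0.77 higher (adjusted p = 0.0617), Slc22a23 0.47 higher (adjusted p = 0.126), and the phosphate carrier gene Slc17a2 and the arginine carrier gene Slc7a1 differed by -0.48 and -0.41 (adjusted p = 0.238 and 0.289). None of these 4 passed. Over the 91 probe sets the median difference was within 0.03 of 0 in each of the 7 comparisons without the KD mutant, and over all tested probe sets within 0.01.

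**Figure D2:**
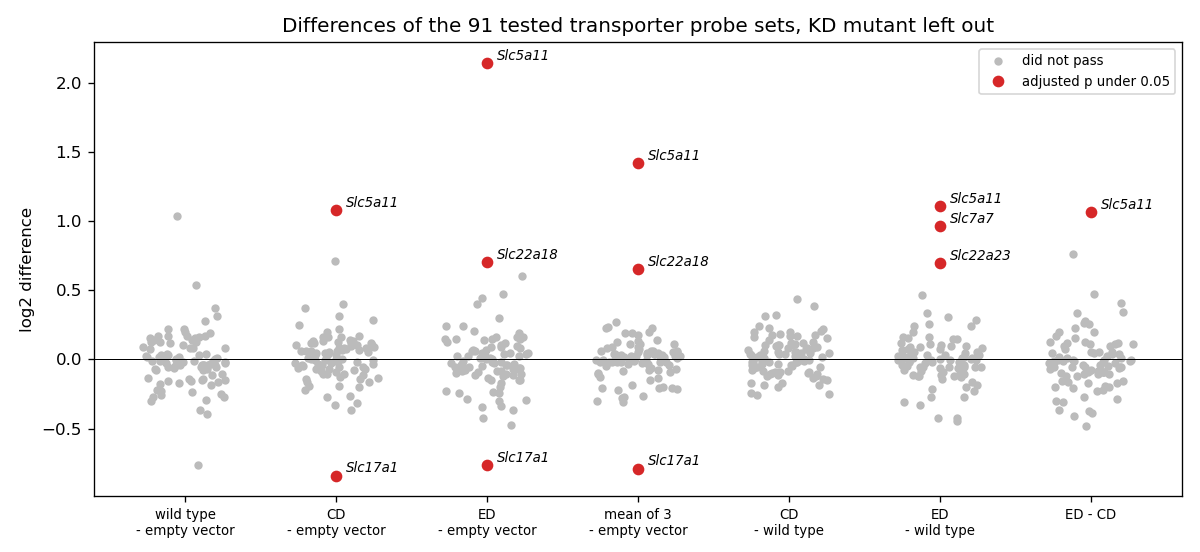
Log2 difference of each of the 91 tested transporter probe sets in the 7 comparisons without the KD mutant; red points passed at an adjusted p under 0.05 and are named, and the sideways spread of grey points has no meaning. Slc5a11 lies above the rest in all comparisons against the vector, at 1.03, 1.08 and 2.14 for wild type, CD and ED mutant, and no point is red for the CD mutant against wild type.

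On the arrays labelled KD mutant the transporters changed almost throughout, as the array did. Against wild type 85 of 91 probe sets passed, where 89.6% of all tested probe sets passed. Of the transporters 23 rose (25.3%) and 62 fell (68.1%), beside 34.5% and 55.1% of all tested probe sets, and their median difference was -1.14 beside -0.56. Of the 62 that fell, 43 were below the test level on both KD mutant arrays, and 6 of the 23 that rose were below it on all 8 other arrays. The 6 are Slc16a7, Slc5a3, Slc38a4, 1 probe set of Slc2a3 and 2 of Slc1a3. These 43 and 6 entered the test only through the arrays where they were high and had to differ, so their counts support nothing and their sizes are not measured exactly. The counts and medians per family given below include them and are descriptions only. Among the 35 transporter probe sets at the level on all 10 arrays, 15 rose, 15 fell and 5 did not pass. Under quantile normalization 77 of the 85 calls kept their direction and their side of the threshold, and with each array centred on its median 80 did, with no call reversed. Under both scalings the counts of rises and of falls in each family moved by at most 2 probe sets. With centring the median of all tested probe sets moved from -0.56 to -0.10, and the share of rises among all calls from 38.5% to 48.2%; among transporters that share went from 27.1% to 30.5%.

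Among sugar carriers, the main glucose carrier gene of dividing cells, Slc2a1, had the largest fall among transporters at the test level on all 10 arrays. It stood at 11.53 and 11.37 with empty vector, 11.30 and 11.29 with wild type, 11.42 and 11.40 for the CD mutant, 11.79 and 11.72 for the ED mutant, and 8.32 and 8.48 on the KD mutant arrays. The KD mutant arrays were far below the other 8, a fall of 2.89 from wild type (SE 0.10, 7.43-fold, adjusted p = 1.35e-10). The high-affinity glucose carrier gene Slc2a3 went the opposite way with 1372326_at alone, from 4.45 and 4.52, below the test level, to 7.94 and 8.45. That probe set was tested only through the KD mutant arrays. The other tested probe set of Slc2a3, 1387707_at, differed by -0.86. The myo-inositol carriers also parted. Slc5a11 fell by 2.66 to 4.40 and 4.77, while Slc5a3, the widely expressed myo-inositol carrier gene induced by high salt, stood at 3.15 and 3.08 with wild type, below the test level, and at 6.49 and 6.87 in the KD mutant. The vitamin carrier gene Slc5a6 rose by 2.48, and the kidney carriers Slc5a12, for lactate, and Slc5a2, for glucose, fell by 1.88 and 1.83. In all, 1 of 8 tested Slc2 and 2 of 7 Slc5 probe sets rose, and 6 and 5 fell.

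Among amino acid carriers, Slc38a2, the sodium-coupled neutral amino acid carrier gene that starved cells induce, had the largest rise among transporters at the test level on all 10 arrays. It ranged from 6.40 to 6.72 over the 8 other arrays and stood at 12.08 and 12.12 on the KD mutant arrays, 5.52 above wild type (SE 0.12, 46.0-fold, adjusted p = 3.50e-12). No array of the other groups came near these values. Its family relatives Slc38a10 and Slc38a7 rose by 2.79 and 2.16, Slc38a4 went from below the test level to a mean of 6.12, and 5 of 9 Slc38 probe sets rose and 4 fell. The neutral amino acid exchanger gene Slc1a4 rose by 3.32, from 5.71 and 5.61 to 8.77 and 9.19, and 4 of 9 Slc1 probe sets rose and 5 fell. The Slc6 family of neurotransmitter, glycine and taurine carriers had 1 rise and 16 falls in 17. The 1 rise, of Slc6a8, did not pass under quantile normalization. The glycine carrier gene Slc6a9 fell by 2.14 (1373787_at), the vesicular amino acid carrier gene Slc6a17 fell by 2.02 (1381704_s_at) and the noradrenaline carrier gene Slc6a2 fell by 1.76. The taurine carrier gene Slc6a6 (1374531_at) stood at 13.23 to 13.47 on the 8 arrays and still at 12.59 and 12.67 on the KD mutant arrays, a fall of 0.62 (adjusted p = 5.63e-05). Of 11 Slc7 probe sets 2 rose and 6 fell. The arginine carrier gene Slc7a3 fell by 2.04 and Slc7a10, for small neutral amino acids, by 1.78. Slc7a7 differed by -0.06 from wild type (adjusted p = 0.692), with both groups below the test level. Under quantile normalization and centring it was 0.49 and 0.33 higher and passed (adjusted p = 0.00955 and 0.0498), so its direction depends on the scaling. All 3 Slc36 probe sets fell (2 under quantile normalization, where Slc36a2 did not pass), the proton-coupled carrier gene Slc36a1 by 1.70. The large neutral amino acid carrier gene Slc43a2 did not pass, with 6.46 and 7.02 on the KD mutant arrays and 7.04 and 7.05 with wild type, and the other Slc43 probe set tested fell.

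The monocarboxylate family had 4 rises and 4 falls in 8. Slc16a7 ranged from 2.71 to 3.29 on the 8 arrays, below the test level, and stood at 7.07 and 7.03 on the KD mutant arrays, through which alone it was tested. Both probe sets of Slc16a13 rose, the brighter on the KD mutant arrays by 3.26. In the Slc17 family the lysosomal sialic acid carrier gene Slc17a5 was the exception, rising by 3.75 from 4.66 and 4.87 to 8.44 and 8.58, while the other 6 probe sets fell. Slc17a2 fell by 2.62, Slc17a4 by 2.31 and Slc17a1 by 1.97, to 3.91 and 4.08 in Slc17a1. Of 10 Slc22 probe sets 3 rose and 6 fell. Slc22a17, which encodes a lipocalin receptor, and Slc22a15 rose by 1.83 and 1.55, whereas Slc22a23 and the kidney cation carrier gene Slc22a2 fell by 2.04 and 1.75. Slc22a18 stood at 6.78 and 6.90, within the range of wild type (difference -0.04, adjusted p = 0.756), and was 0.50 above the vector (adjusted p = 0.00143). Of the 3 genes that passed for the mean of the other constructs, Slc22a18 and Slc17a1 had the same direction against the vector in the KD mutant, and Slc5a11 had the opposite one. Against the vector 87 of 91 transporter probe sets passed, where 89.7% of all did, and 23 were higher and 64 lower (34.5% and 55.1% of all). Slc5a11, Slc17a1 and Slc7a7 differed by -1.62, -2.73 and -0.42, the first 2 ending below the test level. The Slc7a7 difference (adjusted p = 0.0160) was 0.12 under quantile normalization and lost its call with centring (-0.045, adjusted p = 0.778), without empty vector replicate 2 (adjusted p = 0.0756) and without KD mutant replicate 1 (adjusted p = 0.0617). These comparisons share their wild-type or vector arrays with those above.

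**Figure D3:**
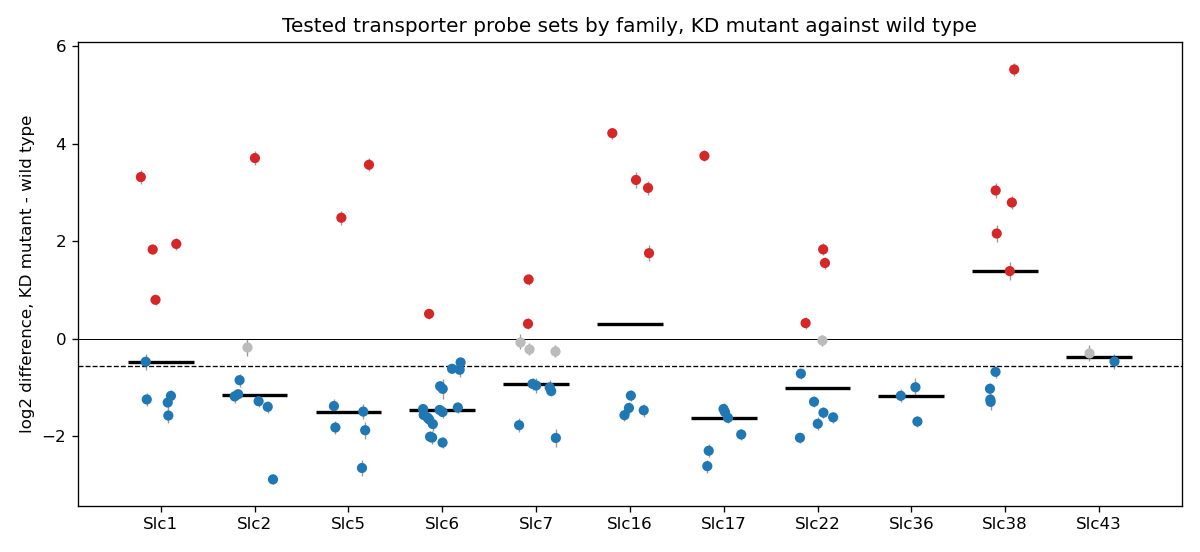
Log2 difference between KD mutant and wild type (points, bars ± SE) of the tested transporter probe sets by family, red for rises, blue for falls and grey for those that did not pass; the short lines are family medians and the dashed line is the median of all tested probe sets, -0.56. Slc38 and Slc16 have medians above 0, at 1.38 and 0.29, and Slc17 has the lowest, -1.63. The medians include the 43 of 62 falls that lay below the test level on both KD mutant arrays, whose sizes are not measured exactly. The Slc1 and Slc43 medians, -0.48 and -0.38, turn to 0.03 and 0.02 under quantile normalization.

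**Figure D4:**
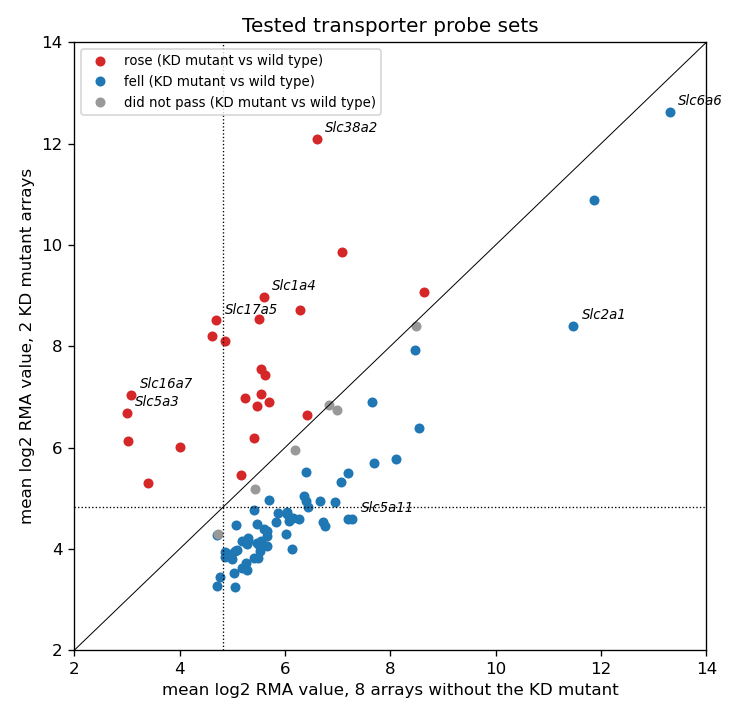
Mean log2 value on the 2 KD mutant arrays against the mean on the 8 other arrays for the 91 tested transporter probe sets; dotted lines mark the test level of 4.82 and the diagonal marks equal values. Most blue points lie below the horizontal line, as 43 of the 62 falls ended below the level, and Slc38a2 lies farthest above the diagonal.

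Probe sets of 1 gene did not always move together. Of 13 genes with more than 1 tested probe set, 4 had probe sets that passed in opposite directions between KD mutant and wild type. The lactate carrier gene Slc16a1 differed by 3.09 with 1386981_at and -1.47 with 1380467_at. The glutamate carrier gene Slc1a3 differed by 1.94 and 1.83 with 1371130_at and 1368565_at and by -0.48 with 1388064_a_at. Slc2a3 differed by 3.70 with 1372326_at and -0.86 with 1387707_at, and the creatine carrier gene Slc6a8 by 0.51 with 1386934_at and -0.49 with 1367810_at. The rising probe sets of Slc1a3 and Slc2a3 were tested only through the KD mutant arrays. For these 4 genes the arrays give no single direction, and which transcript each probe set reads was not tested.

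**Figure D5:**
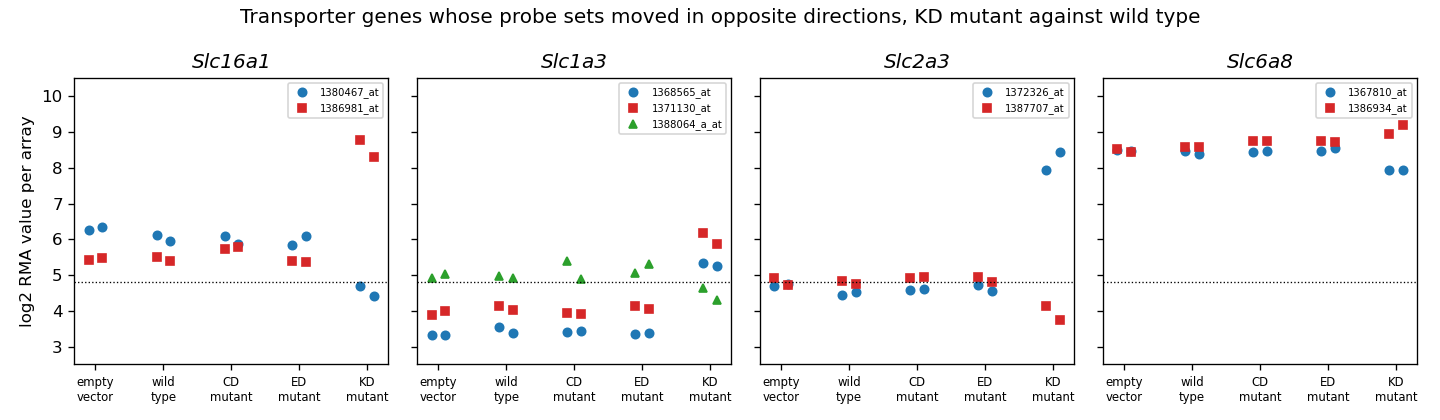
Log2 RMA value per array of each tested probe set of Slc16a1, Slc1a3, Slc2a3 and Slc6a8, by construct, with 1 symbol per probe set and the test level dotted. In each panel 1 probe set or more rises on the KD mutant arrays while another falls, by 3.09 against -1.47 in Slc16a1.

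Of the 14 promoters of transporter genes whose passing probe sets all rose, 4 held GGCGCC and 3 the E-box CACGTG, beside 5 and 5 of the 37 among those that fell. Of all promoters, 11.02% and 6.42% held them. Only the matches before the start in genes that rose are shown, with the motif in capitals, as descriptions and not as sites. Genes that fell also held matches before the start, among them Slc2a1 and Slc6a3 for GGCGCC and Slc36a1 and Slc43a1 for the E-box. The windows hold up to 25 bases on each side and end at the start. The first 3 hold the E-box and the other 2 hold GGCGCC.
Slc5a6, chr6:31040186-31040241, plus strand: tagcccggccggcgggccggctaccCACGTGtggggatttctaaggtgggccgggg
Slc1a4, chr14:98761563-98761607, minus strand: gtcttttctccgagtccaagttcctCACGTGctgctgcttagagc
Slc38a7, chr19:9215327-9215377, plus strand: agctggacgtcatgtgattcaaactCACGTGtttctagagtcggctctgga
Slc17a5, chr8:88309746-88309801, minus strand: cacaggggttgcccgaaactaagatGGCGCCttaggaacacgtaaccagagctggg
Slc7a1, chr12:11664292-11664347, plus strand: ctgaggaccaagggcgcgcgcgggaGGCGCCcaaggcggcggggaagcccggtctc
Slc5a6, Slc1a4, Slc38a7 and Slc17a5 rose by 2.48, 3.32, 2.16 and 3.75. Slc7a1 rose by 0.30 with 1 probe set (1368392_at, adjusted p = 0.0237 in limma) and did not pass with the other, and the first call was lost under quantile normalization.

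Partners of the carriers were read from 10 lists, covering heavy chains, chaperones, scaffolds, the sodium pump, inositol metabolism, osmotic and amino acid responses, glucose handling, lysosomal sensing and carrier turnover. Of their 103 tested probe sets 0 passed in limma in wild type against vector, CD mutant against vector or CD mutant against wild type. Of all tested probe sets 0.0133%, 0.111% and 0% passed there. In the ED mutant 2 of the 103 rose and 1 fell against vector, where 0.529% of all passed. Against the CD mutant 2 rose and 1 fell (0.351% of all passed), and against wild type 1 rose (0.164% of all). For the mean of the 3 constructs 1 rose, where 0.2% of all passed. In the osmotic response list, Sgk1, a kinase gene induced by cell shrinkage and steroid hormones whose product keeps carriers at the surface, stood at 10.42 and 10.39 with empty vector, 10.62 and 10.70 with wild type, 10.43 and 10.51 for the CD mutant, 11.37 and 11.51 for the ED mutant and 7.57 and 7.63 in the KD mutant. The ED mutant arrays were above all others, by 0.78 over wild type, 1.04 over vector and 0.97 over the CD mutant (adjusted p = 0.0229, 0.00146 and 0.00253 in limma). The list as a whole did not rise. Its 8 tested probe sets had medians of -0.08, -0.09 and -0.07 in these comparisons, with 1, 2 and 2 higher and 0 lower. The water channel gene Aqp1 (1387651_at) stood at 7.39 and 7.54 with empty vector, 8.06 and 8.20 with wild type, 7.92 and 7.85 for the CD mutant and 8.99 and 8.59 for the ED mutant. It rose by 1.32 in the ED mutant against vector and by 0.91 against the CD mutant (adjusted p = 0.00201 and 0.0217), and by 0.80 for the mean of the 3 constructs (adjusted p = 0.0234), while its other probe set passed in none of these. The sodium pump subunit gene Atp1b3 fell by 0.58 in the ED mutant against vector (adjusted p = 0.0361), and the stress gene Nupr1 fell by 0.57 against the CD mutant (adjusted p = 0.0489).

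Between KD mutant and wild type 45 of the 103 partner probe sets rose (43.7%) and 41 fell (39.8%), beside 34.5% and 55.1% of all tested probe sets. The heavy chain gene Slc3a2, the partner of Slc7 exchangers, rose by 0.73, and Bsg, the chaperone gene of the Slc16 carriers, by 2.12, while the other chaperone gene, Emb, fell by 1.60. Both probe sets of Nfat5, the osmotic regulator of Slc5a3, rose, by 6.40 and 0.56, and the osmotic response list had 5 rises and 3 falls in 8. The amino acid response list had 11 rises and 9 falls in 24, and its regulator gene Atf4 fell by 0.86. The glucose list had 6 and 6 in 13, with Txnip, whose product limits glucose uptake, 2.07 higher. Inositol metabolism had 2 rises and 7 falls in 14, the sodium pump 2 and 3 in 7, scaffolds 4 and 5 in 11, lysosomal sensing 7 and 4 in 12 and carrier turnover 6 and 3 in 10.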

How the data were processed

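Total RNA was labelled with biotin and hybridised to 10 arrays, per the labels' protocols. The values deposited by the authors are log2 values per probe set from RMA, which the submitters' processing notes name. Its version, and whether 1 run covered all arrays, is not stated in the sources at hand. RMA compresses differences at low signal. Detection calls were not used, so no probe set is called present or absent. Precision is limited by the number of arrays.

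Probe sets were named through the platform annotation, with symbols updated by the RefSeq table of GRCr8. After 57 Affymetrix controls were left out, probe sets that reached log2 4.82, the 40th percentile over every value, on 2 arrays or more were tested, 22502 in all. The fit used limma 3.58.1 (R 4.3.3; 5 group means over 10 arrays, eBayes), and p-values were two-sided and adjusted by the Benjamini-Hochberg method over all of them in each comparison. SE is the moderated standard error, and the model was tested on simulated data.

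Members, gene lists and tests were chosen with earlier results of these data known. Named were Slc5a11, Slc17a1 and Slc7a7, every transporter called among the 8 arrays without the KD mutant, the 5 largest differences there, up to 15 rises and 15 falls in the KD mutant, the brightest gene per family and genes with opposite probe sets. Markers named singly were picked from their lists, and partner genes from theirs, after their values were seen. Alternatives were to drop the filter or raise it to the 60th percentile, a filter and fit without the KD mutant, quantile normalization, median centring, an intensity trend with robust variance, a replicate block, 1 probe set per gene, only the arrays compared and leaving out each array.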

Additional observations from a re-analysis of the deposited data

How the results depend on the processing

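With each array left out in turn, the calls numbered 0 to 0 for wild type against vector, CD mutant against wild type, ED mutant against wild type and CD mutant against vector, 1 to 2 for ED mutant against vector, 0 to 1 for ED against CD mutant, 0 to 2 for the mean of the 3 constructs against vector, 75 to 86 for KD mutant against wild type and 77 to 86 for KD mutant against vector. The array left alone in its group was then assumed to vary like the other groups. When only the arrays compared were fitted, the ED mutant against wild type and the CD mutant against vector gave 0, while ED mutant against vector gave 2, ED against CD mutant 1 and the mean of the 3 constructs 3. Without the filter the CD mutant against vector gave 1. An intensity trend with robust variance gave 2 for wild type against vector, 6 for ED mutant against vector and 4 for ED against CD mutant, and 1 probe set per gene gave 1 for the first and 2 for the last. Over all tested probe sets the calls with the trend were 68, 493 and 287 in that order, beside 3, 119 and 79 in the main fit. The fit without the KD mutant and quantile normalization each gave 2 for ED against CD mutant. At the 60th percentile filter, which tests fewer probe sets, the KD mutant gave 53 against wild type and 54 against vector. The replicate block gave 2 for ED mutant against wild type, where Slc7a7 had an adjusted p of 0.0527 in limma. It moved no other count by more than 1. Same-numbered arrays deviated together in 1 of 10 pairs of groups (correlations -0.03 to 0.14). With 2 arrays in a group, this cannot show whether same-numbered arrays shared a batch.

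Some differences turned sign. Slc17a1 in the ED mutant against wild type was 0.0067 under quantile normalization, 0.012 with centring and -0.049 to 0.045 with arrays left out. Slc5a11 in the CD mutant against wild type was -0.14 to 0.23 with arrays left out. Slc7a7 in the KD mutant against wild type was 0.49 under quantile normalization and 0.33 with centring, both past the threshold (adjusted p = 0.00955 and 0.0498), and -0.16 to 0.037 with arrays left out, against vector 0.12 under quantile normalization, and for the mean of the 3 constructs -0.022 to 0.073 with arrays left out.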
